A study of Mus musculus with 2 samples.

Results

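Irf7, Irf1, Irf9, Stat2, Irf3, Ifnar1, Ifnar2, Jak1 and Tyk2 encode the receptor, kinases and transcription factors through which a cell senses and relays type I interferon. These 9 genes were taken by name from a list of receptor and transcription factor genes, with no expression value in the rule, and all 9 were among the 31053 genes listed in each library, each under 1 identifier. They were read in 2 droplet libraries of microglia, the macrophages that live in brain tissue, sorted from the hypothalamus of wild-type mice described only as young. Several mice had been pooled and had received plasma protein tagged with a dye 20 h before the sort. Microglia that carried the dye formed the plasma-positive library and microglia without it the plasma-negative library. No age in weeks, sex or number of mice was given, and no uninjected or untreated group was part of the design, so both groups shared the injection. With 1 library per group no difference below has a replicate check, no test was possible, and every 95% interval covers counting error only.

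After filtering, the plasma-negative library held 9860 of 9878 cells with 34534518 UMIs (unique molecular identifiers, each marking 1 captured RNA molecule), and the plasma-positive library 10362 of 10390 cells with 41984977 UMIs. Median depth was 3270.5 and 3753 UMIs per cell, and the median mitochondrial share was 1.08% and 1.27% of UMIs. All 11 microglia markers were found, each in 64.4% to 99.6% of cells without dye and 68.0% to 99.8% of cells with it, and 9848 and 10347 cells held at least 4 of them. Of the other 13 cell types examined, border macrophages reached 4 markers in 0 and 1 cells and the oligodendrocyte lineage in 1 and 1 cell, and the rest in 0 cells. The summed level of 7 border macrophage markers was 3.62 and 6.19 CPM (UMIs per 1000000 UMIs of the library). Most of it was Mrc1, and Cd163, Lyve1 and F13a1 were at 0 UMIs in the plasma-negative library and at 3, 0 and 4 UMIs in the plasma-positive one. That of 4 neuronal markers was 1.88 and 3.64 CPM, so transcripts of both cell types were higher in the plasma-positive library, and their part in the results below was not tested.

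Type I interferons bind a surface receptor made of the IFNAR1 and IFNAR2 chains, which carry the kinases TYK2 and JAK1. These kinases phosphorylate STAT2, which together with IRF9 is part of ISGF3, the factor that binds interferon-stimulated response elements (ISRE) and switches on antiviral genes. IRF3 is made constitutively and is activated by phosphorylation after nucleic acid sensing, whereas IRF7 is in most cells itself an interferon-induced gene that amplifies further interferon production. Interferon gamma acts mainly through another element (GAS), for which Irf1 is the classic target gene. On this knowledge Irf7, Irf1, Irf9 and Stat2 were treated as the induced members, and Irf3, Ifnar1, Ifnar2, Jak1 and Tyk2 as the constitutive members.

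The stretches upstream of 3 induced members were searched for both elements. They are RefSeq sequences of build GRCm38.p6, read 5′ to 3′ on the gene's strand and ending just before the gene's start. Capitals mark a match to the ISRE core GAAANNGAAA (TTTCNNTTTC on the other strand) or to the GAS core TTCNNNGAA, which reads the same pattern on both strands. Stat2 is shown for its ISRE match, Irf1 for its GAS match, and Irf7, the member that differed most between the libraries, because its window held neither.
Stat2 at chr10:128270248-128270497, plus strand: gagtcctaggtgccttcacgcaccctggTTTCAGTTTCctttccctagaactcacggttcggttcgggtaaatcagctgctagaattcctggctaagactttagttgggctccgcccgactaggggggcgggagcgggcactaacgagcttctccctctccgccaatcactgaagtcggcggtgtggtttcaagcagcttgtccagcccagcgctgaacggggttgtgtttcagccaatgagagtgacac
Irf1 at chr11:53769764-53770013, plus strand: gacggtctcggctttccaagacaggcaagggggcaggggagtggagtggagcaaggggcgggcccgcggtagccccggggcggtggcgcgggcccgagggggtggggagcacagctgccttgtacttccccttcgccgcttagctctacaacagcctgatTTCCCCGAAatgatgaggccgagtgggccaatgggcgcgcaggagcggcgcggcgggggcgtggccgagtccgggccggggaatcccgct
Irf7 at chr7:141266482-141266674, minus strand: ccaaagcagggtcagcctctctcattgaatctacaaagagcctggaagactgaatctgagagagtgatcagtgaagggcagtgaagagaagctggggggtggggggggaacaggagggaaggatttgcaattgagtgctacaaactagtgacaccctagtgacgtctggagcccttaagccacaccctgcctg

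Windows of 250 bases before the start were found for 9 of 9 members. The ISRE core was present in the window of 1 member, Stat2, as TTTCAGTTTC beginning 222 bases before the start. It was present in 978 of 32851 windows of the whole table (2.98%) and in those of 8 of the 14 interferon effector genes matched. The GAS core was present in the windows of 2 members, Irf1, as TTCCCCGAA 90 bases before the start, and Ifnar2, as TTCCTGGAA 214 bases before it, against 2306 of all windows (7.02%) and 2 of the 14 effector genes. The stretch shown for Irf7 holds 193 bases, since the rest of its window lies inside the gene as GENCODE M21 draws it. Both windows of Irf9 lie wholly inside the gene in that annotation, so they say nothing of the sequence upstream of it. A match describes letters only, and no match says only that these letters are not in this window.

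The 9 members spanned a wide range of levels, and for 7 of them the plasma-positive level was 0.907 to 1.05 times the plasma-negative one. In the plasma-negative library the order ran from Ifnar2 through Jak1, Ifnar1, Irf3, Irf9, Irf1, Tyk2 and Stat2 down to Irf7. Each step of that order exceeded counting error except that from Irf3 to Irf9, whose ratio was 1.00 (0.942 to 1.07). In the plasma-positive library the order was the same except that Irf9 stood above Irf3. UMIs are counted near the transcript's 3′ end, so these CPM levels were compared between genes without a length correction.

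**Figure D1:**
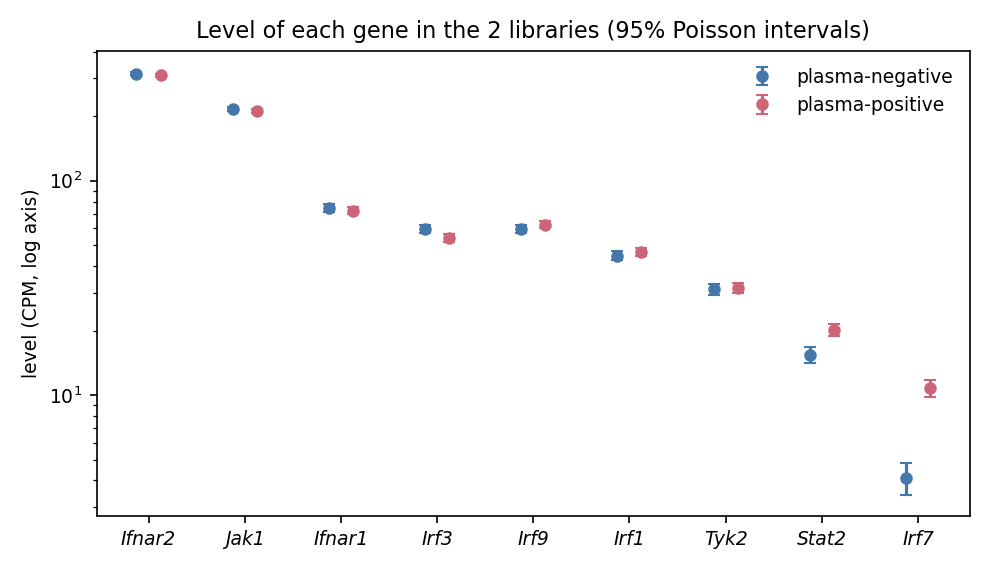
Level of each member in CPM on a log axis, in the plasma-negative and the plasma-positive library, with 95% Poisson intervals. The constitutive members lie nearly on top of each other in both libraries, whereas Irf7 sits at 4.08 and 10.7 CPM and Stat2 at 15.3 and 20.1 CPM.

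Ifnar2, the ligand-binding chain that in its long form docks JAK1 and STAT2, was the most abundant member. It stood at 316 CPM (310 to 322; 10911 UMIs) in the plasma-negative and 311 CPM (305 to 316; 13041 UMIs) in the plasma-positive library. Ifnar1, the chain that carries TYK2, stood at 74.7 CPM (71.9 to 77.6; 2580 UMIs) and 72.5 CPM (70.0 to 75.2; 3046 UMIs). For both chains the intervals of the libraries overlap, and the log2 ratios, plasma-positive over plasma-negative, were -0.02 (-0.06 to 0.01) for Ifnar2 and -0.04 (-0.12 to 0.03) for Ifnar1. Both genes lie on the plus strand of chromosome 16 of GRCm38 (GENCODE M21). Ifnar2 (ENSMUSG00000022971) spans 91372783 to 91405589 and Ifnar1 (ENSMUSG00000022967) spans 91485238 to 91507441. Ifnar2 shares 13869 bases with Gm21970 on the same strand, a gene with 0 UMIs in both libraries. How reads in those bases were assigned was not given.

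The kinases followed the same pattern. Jak1 was at 216 CPM (211 to 221; 7463 UMIs) and 211 CPM (207 to 215; 8859 UMIs), with a log2 ratio of -0.03 (-0.08 to 0.01). Tyk2, the rarer kinase, was at 31.1 CPM (29.3 to 33.0; 1074 UMIs) and 31.6 CPM (29.9 to 33.3; 1326 UMIs), with a log2 ratio of 0.02 (-0.09 to 0.14). Neither difference exceeded counting error. Jak1 (ENSMUSG00000028530) lies on chromosome 4 at 101152367 to 101265282, and Tyk2 (ENSMUSG00000032175) on chromosome 9 at 21104068 to 21131243, both on the minus strand. Tyk2 overlaps 1700084C06Rik on the opposite strand over 24326 bases, a gene at 0.0869 and 0.0476 CPM.

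Irf3, the constitutive factor of nucleic acid sensing, was the constitutive member with the largest difference and the only one of the 9 whose interval lay wholly below equality. It was at 59.5 CPM (56.9 to 62.1; 2054 UMIs) in the plasma-negative and 53.9 CPM (51.7 to 56.2; 2265 UMIs) in the plasma-positive library. The log2 ratio of -0.14 (-0.23 to -0.05) is small and lay at percentile 15.8 of the genes compared. Irf3 (ENSMUSG00000003184; chromosome 7, 44997648 to 45002848, plus strand) overlaps Bcl2l12 on the opposite strand over 1065 bases. Bcl2l12 was at 17.8 and 17.2 CPM, and without a stated use of strand its reads cannot be told from those of Irf3 there.

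Stat2, the STAT specific to type I and type III interferon signalling, was higher in the plasma-positive library. It was at 15.3 CPM (14.1 to 16.7; 530 UMIs) and 20.1 CPM (18.8 to 21.5; 844 UMIs), and these intervals do not overlap. The log2 ratio was 0.39 (0.23 to 0.55), at percentile 99.3 of the genes compared, although this is a 1.31-fold difference. Stat2 (ENSMUSG00000040033) lies on chromosome 10 at 128270559 to 128292849 on the plus strand.

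Irf9, the DNA-binding part of ISGF3, was nearly equal in both libraries. It was at 59.4 CPM (56.8 to 62.0; 2050 UMIs) and 62.4 CPM (60.0 to 64.8; 2619 UMIs), with a log2 ratio of 0.07 (-0.01 to 0.16) whose interval includes equality. Irf9 (ENSMUSG00000002325; chromosome 14, 55603571 to 55610030, plus strand) shares 123 bases with Rnf31 on the same strand, a gene at 18.9 and 18.8 CPM. Reads in those bases cannot be assigned to either gene.

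Irf1, the factor shared by interferon gamma, interferon beta and NF-kB responses, was at 44.7 CPM (42.5 to 47.0; 1545 UMIs) and 46.5 CPM (44.5 to 48.7; 1954 UMIs). The log2 ratio of 0.06 (-0.04 to 0.15) did not exceed counting error. Irf1 (ENSMUSG00000018899; chromosome 11, 53770014 to 53778374, plus strand) overlaps Gm17334 on the opposite strand over 907 bases, which was at 0.347 and 0.262 CPM.

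Irf7 was the rarest member and the one that differed most. It was at 4.08 CPM (3.44 to 4.82; 141 UMIs) in the plasma-negative and 10.7 CPM (9.77 to 11.8; 451 UMIs) in the plasma-positive library. The intervals are far apart and the log2 ratio was 1.40 (1.12 to 1.68), a 2.63-fold difference (2.17 to 3.20) at percentile 99.9 of the genes compared. Irf7 reached the minimum of 10 CPM only in the plasma-positive library, so it entered the comparison only through the group in which it was high. Irf7 (ENSMUSG00000025498; chromosome 7, 141262706 to 141266481, minus strand) overlaps the end of Phrf1 on the opposite strand over 45 bases. Phrf1 was at 35.3 and 35.5 CPM, equal in both libraries and above Irf7 in each.

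Among 8355 genes at 10 CPM or more in at least 1 library, 19 (0.227%) were at least 2-fold higher in the plasma-positive library, and 1 of the 9 members was among them, Irf7. No gene was 2-fold lower (0%), and so no member. A 1.5-fold limit took in 27 higher genes (0.323%) and 2 lower ones (0.0239%), with 1 member among the former, Irf7 again, and 0 among the latter. Any ratio above 1 was seen in 35.7% of genes and any below 1 in 64.3%, with a median log2 ratio of -0.04 over all genes compared. All 4 induced members were above 1, with a median log2 ratio of 0.23, although only Irf7 and Stat2 exceeded counting error. Of the 5 constitutive members 1 was above 1, Tyk2, and 4 were below, with a median of -0.03, close to that of all genes.

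**Figure D2:**
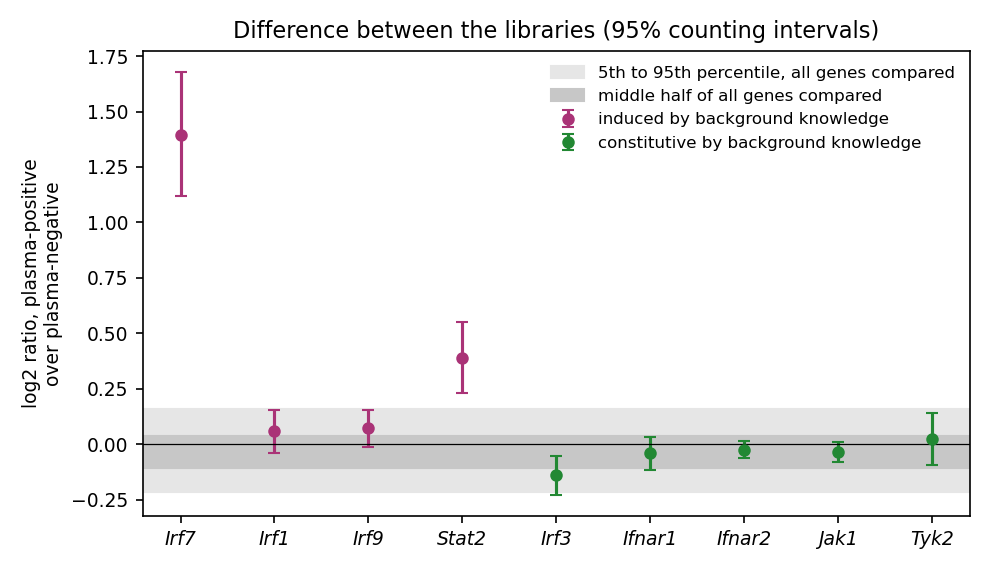
Log2 ratio of plasma-positive to plasma-negative CPM for each member, with 95% counting intervals, against the spread of all 8355 genes compared. Irf7 at 1.40 and Stat2 at 0.39 stand clear of the other 7 members, which lie between -0.14 and 0.07.

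The rest of the pathway was read from gene lists in the order of signal flow. Of 21 interferon ligand genes listed, 3 had any UMI. Ifnb1, interferon beta, had 10 UMIs in the plasma-negative library, all in 1 cell, and 1 UMI in the plasma-positive library. Ifna16 and Ifnz had 0 and 1 UMI each. The other 18, with most interferon alpha genes and Ifng among them, had 0 UMIs, which allows up to 0.0869 CPM in the plasma-negative and 0.0715 CPM in the plasma-positive library per gene at 3 counts. So the ligands were at or near the detection limit in both libraries while the receptor chains were plainly detected.

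Of the 3 other interferon receptor genes compared, 1 was above a ratio of 1 and 2 were below, with a median log2 ratio of -0.08. The most abundant, Ifngr1, the ligand-binding chain for interferon gamma, was at 1009 and 954 CPM. Ifnlr1, the specific chain for type III interferon, had 0 UMIs in both libraries. Of 6 other JAK and STAT genes 3 were higher and 3 lower, with a median of -0.03, and Stat3, a STAT used by many cytokines, was the most abundant at 78.9 and 79.0 CPM. All 3 other IRF genes compared were below 1, with a median of -0.03, led in level by Irf8, a lineage factor of microglia, at 527 and 517 CPM. None of these lists had a gene at 1.5-fold or more.

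Among 6 negative feedback genes compared, 1 was higher and 5 lower, with a median of -0.09. Ptpn6, a phosphatase that dampens JAK signalling, was the most abundant at 202 and 194 CPM. Usp18, which blocks signalling at IFNAR2 and is itself interferon-induced, went from 3.74 CPM (129 UMIs) to 9.27 CPM (389 UMIs), a log2 ratio of 1.31 (1.02 to 1.61). It stayed under 10 CPM in both libraries, is outside the counts above and was singled out after its values were seen. Of 14 nucleic acid sensing genes 6 were higher and 8 lower, with a median of -0.01, and the most abundant, Tmem173 (STING), was at 402 and 374 CPM.

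The downstream effectors showed a clear difference. All 10 interferon effector genes compared were higher in the plasma-positive library, 9 of them at least 1.5-fold and 8 at least 2-fold, with a median log2 ratio of 1.35. Earlier results of these data were known when that list was drawn up, so it is no independent evidence of direction. The largest ratios by gene were those of Ifi207 (1.97 to 10.7 CPM), Ifi27l2a (19.5 to 90.9 CPM), Ifitm3 (13.1 to 58.1 CPM), Oasl2 (3.30 to 12.9 CPM) and Ifi204 (15.6 to 41.3 CPM). Of these, Ifi207 and Oasl2 reached 10 CPM only in the plasma-positive library, so they entered only through the group where they were high. The 10 genes compared are part of 19 in the matrices, and the rest stayed under 10 CPM in both libraries. Summed over all 19, without that minimum, the level was 149 and 395 CPM, a ratio of 2.64 (2.56 to 2.73). Ifi27l2a encodes a small mitochondrial protein, Ifitm3 a membrane protein that blocks viral entry, Oasl2 a relative of the RNA-sensing OAS enzymes, and Ifi207 and Ifi204 proteins of the DNA-sensing Ifi200 family. By contrast the 6 genes that lean towards interferon gamma were all above 1 but 0 of them reached 1.5-fold, with a median of 0.14. The most abundant, the GTPase Gbp7, was at 88.1 and 102 CPM.

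**Figure D3:**
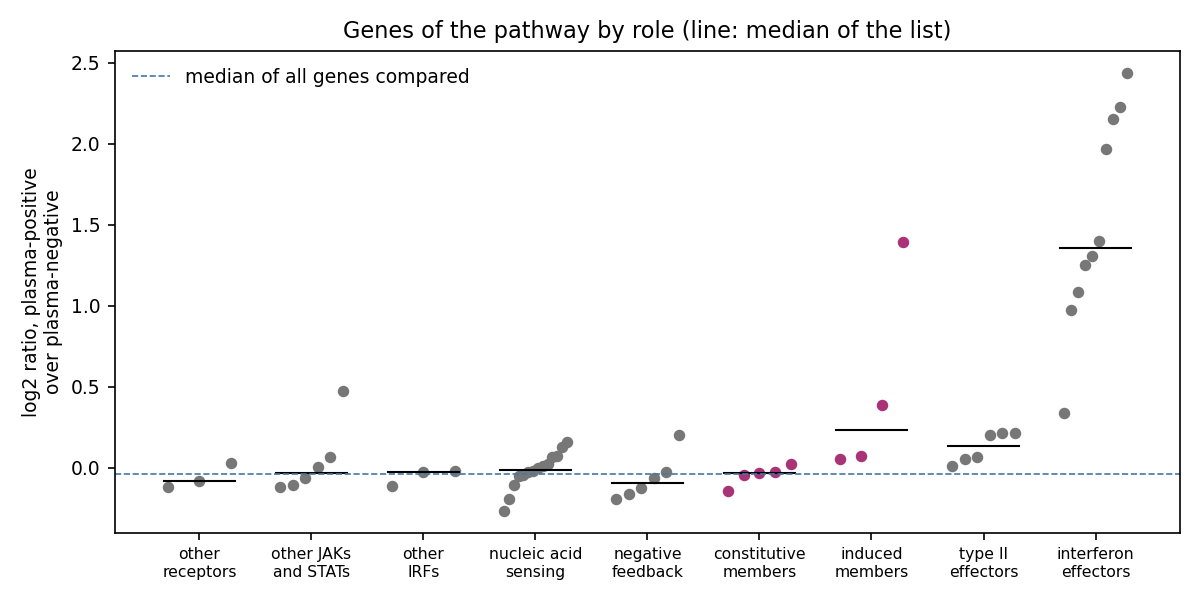
Log2 ratio of plasma-positive to plasma-negative CPM for the genes of each pathway role that reached 10 CPM in a library. Receptors, kinases, feedback and sensing genes crowd around 0, the interferon effectors reach up to 2.44, and Irf7 stands at 1.40 in the column of induced members. Short lines are list medians and the dashed line is the median of all genes compared, -0.04.

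The members were then followed cell by cell, first as the share of cells with at least 1 UMI. Irf7 was found in 108 of 9860 plasma-negative cells (1.10%, 0.899 to 1.32) and in 292 of 10362 plasma-positive cells (2.82%, 2.51 to 3.16; Clopper-Pearson). Cells were then thinned to 1000 UMIs each, leaving out 796 and 603 shallower cells, and the shares became 0.397% (0.278 to 0.549) and 0.984% (0.798 to 1.20). So the gap in Irf7 remained at equal depth. Stat2 was found in 4.80% and 7.01% of cells, and in 1.41% (1.18 to 1.68) and 2.20% (1.92 to 2.51) after thinning.

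For 5 of the other 7 members the higher unthinned share of the plasma-positive library was not seen at equal depth, and for Jak1 and Irf9 it was. Ifnar2 was found in 60.4% and 64.6% of cells but in 26.6% and 26.4% after thinning, and Jak1 in 46.2% and 51.0%, then 17.5% and 19.0%, although at 2000 UMIs it was 33.4% and 32.8%. Ifnar1 was found in 21.5% and 23.8%, then 7.02% and 6.79%, and Tyk2 in 10.1% and 11.6%, then 3.30% and 3.10%. Irf3 was found in 18.1% and 19.0%, then 5.71% and 5.38%, and Irf1 in 13.4% and 15.7%, then 4.61% and 4.51%. Irf9 was found in 16.8% and 19.7%, then 5.41% and 6.47%, and of these 7 it kept the widest relative gap at 1000 UMIs. Thinned to 2000 UMIs, with more cells carrying a UMI, Irf9 was in 10.3% and 10.8% of cells.

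Cells known to lack these genes were not present in the sort, so transcripts of other lineages served as the measure of stray RNA. Snap25, a neuronal gene, had a UMI in 0.213% and 0.483% of cells, and Aqp4, an astrocyte gene, in 0.142% and 0.251%, both below Irf7. Mbp, from the oligodendrocyte list, had a UMI in 7.01% and 8.25% of cells, above Irf7 in both libraries, and whether those UMIs were stray was not tested. A single Irf7 UMI in a cell cannot by itself be read as expression. Counts of more than 1 UMI in a cell, and the levels by effector transcripts given further on, bear on Irf7 more directly. Cells with at least 2 Irf7 UMIs were 23 in the plasma-negative (0.233%) and 87 in the plasma-positive library (0.840%). The highest Irf7 count in 1 cell was 4 and 11 UMIs.

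Next the cells were ordered by interferon effector transcripts, a list that shares no gene with the members. Of the 20 effector genes listed 19 were in the matrices, and each cell was placed by its effector UMIs after thinning to 1000 UMIs. The ranges of 0, 1, 2, and 3 or more UMIs held 8255, 642, 86 and 81 plasma-negative cells and 8197, 950, 230 and 382 plasma-positive cells. Cells with 3 or more were thus 0.894% and 3.91% of each library, and they are a range and not a cell type. At the edge of the range, 28 and 115 cells had exactly 3 effector UMIs, and 86 and 230 had 2. Member levels in these ranges were computed from all UMIs of the cells.

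Irf7 was concentrated in the effector-rich cells of both libraries. Across the ranges of 0, 1, 2, and 3 or more effector UMIs it stood at 1.68, 8.26, 27.5 and 181 CPM in the plasma-negative and at 2.28, 9.02, 39.9 and 171 CPM in the plasma-positive library. The highest range exceeded the lowest 107-fold (72.5 to 159) and 74.9-fold (58.2 to 97.3). With cells placed at 2000 UMIs instead, these became 61.9-fold (42.3 to 91.1) and 61.2-fold (46.0 to 82.8). Effector-rich cells held 41.7% of all Irf7 UMIs in the plasma-negative and 64.0% in the plasma-positive library. Within them the libraries did not differ beyond counting error in Irf7, with a ratio of 0.944 (0.710 to 1.28).

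Stat2 followed the same order with a smaller span. It stood at 13.5, 21.5, 33.6 and 131 CPM in the plasma-negative and 14.9, 25.6, 46.2 and 95.2 CPM in the plasma-positive library, 9.71-fold (6.90 to 13.4) and 6.37-fold (5.30 to 7.63) from lowest to highest range. Unlike Irf7, most Stat2 UMIs, 79.8% and 62.2%, lay in cells with 0 effector UMIs.

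Irf1 and Irf9, nearly equal between the libraries as a whole, also differed between cells of a library. Irf1 was at 42.9 CPM in cells with 0 effector UMIs and 156 CPM in cells with 3 or more of the plasma-negative library, a ratio of 3.63 (2.68 to 4.82). In the plasma-positive library it was at 44.6 and 83.2 CPM, a ratio of 1.87 (1.56 to 2.22). Irf9 went from 56.2 to 143 CPM, a ratio of 2.55 (1.86 to 3.42), and from 57.9 to 94.6 CPM, a ratio of 1.63 (1.38 to 1.92). Effector-rich cells of the plasma-positive library were therefore lower than those of the plasma-negative library in Irf1, with a ratio of 0.534 (0.384 to 0.754), and in Irf9, with a ratio of 0.660 (0.473 to 0.938). Without the plasma-negative cell that held the Ifnb1 UMIs, the Irf1 ratio was 0.612 (0.432 to 0.883). The effector-rich cells also differed in make-up: Ifi27l2a and Ifitm3 gave 21.8% of their effector UMIs in the plasma-negative and 39.7% in the plasma-positive library, and the Ifit genes 29.3% and 18.8%. The part of that make-up in the Irf1 and Irf9 values was not tested.

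The constitutive members showed little or no such gradient. From 0 to 3 or more effector UMIs, the ratios in the plasma-negative and plasma-positive libraries were 1.12 and 0.833 for Irf3, 0.960 and 1.06 for Ifnar2, and 1.26 and 1.23 for Tyk2, with every interval including 1. Ifnar1 had ratios of 0.913 (0.571 to 1.38) and 0.766 (0.616 to 0.941), and Jak1 of 1.02 (0.797 to 1.29) and 0.861 (0.766 to 0.966). Both were thus slightly lower in effector-rich cells of the plasma-positive library, by more than counting error.

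**Figure D4:**
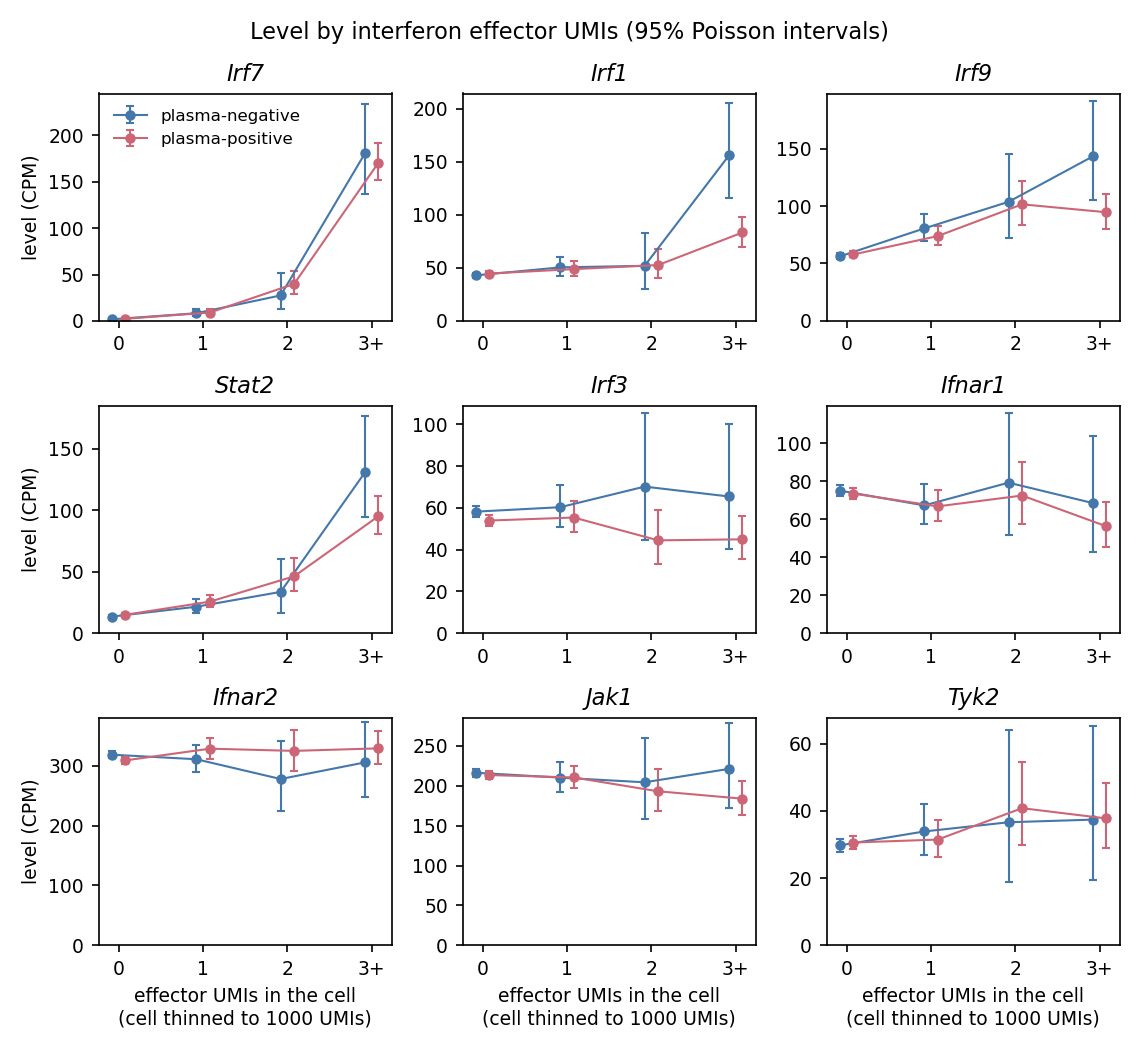
CPM of each member in cells with 0, 1, 2, and 3 or more interferon effector UMIs, by library, with 95% Poisson intervals. Each panel has its own linear axis starting at 0. Irf7 climbs from 1.68 and 2.28 CPM to 181 and 171 CPM, Stat2 from 13.5 and 14.9 to 131 and 95.2 CPM, and the receptor chains and kinases stay nearly level.

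The levels per range allow the library difference to be split by arithmetic. If the plasma-negative level of each range is kept and the ranges are weighted by the UMIs of the plasma-positive cells, Irf7 comes to 10.2 CPM, against 4.10 and 10.7 CPM observed over the same cells. The ratio to the plasma-negative library is then 2.49 against 2.62 observed. In this arithmetic nearly all of the Irf7 difference goes with the larger share of effector-rich cells. The same holds for Stat2, with 1.27 against 1.31. For Irf3 the weighted ratio is 1.01 against 0.913, so its lower level in the plasma-positive library does not go with the effector ranges. The effector list was drawn up with earlier results of these data known. A larger share of effector-rich plasma-positive cells is thus no independent finding, the split only describes the counts, and no cause was tested.

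Depth and mitochondrial share differed between the libraries, so the ratios were repeated in 4 bins of each. The Irf7 ratio lay between 2.17 and 3.75 over depth bins and between 2.15 and 3.03 over bins of mitochondrial share. The Stat2 ratio lay between 1.18 and 1.43 and between 1.21 and 1.39. Both were above 1 in every bin, and the Irf3 ratio, from 0.857 to 0.976 and from 0.878 to 0.946, was below 1 in every bin. The other 6 members lay between 0.830 and 1.20.

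Members were also read in the same cell at 2000 UMIs, where 8249 and 9109 cells remained. Both receptor chains, Ifnar1 and Ifnar2, were found together in 6.12% and 6.21% of cells. This is 1.01 and 1.01 times the number the product of their shares gives, so at this depth their UMIs were spread over cells as if unrelated. Jak1 and Tyk2 were found together in 2.01% and 2.03% of cells, 1.00 and 1.04 times the product. Irf7 and Stat2 in contrast met 5.87 and 5.03 times as often as the product, in 8 and 26 cells. Stat2 and Irf9, partners in ISGF3, met 1.30 and 1.57 times as often, in 30 and 54 cells.

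Cells with an Irf7 UMI were compared with those without one in the other members. They were somewhat deeper, with medians of 3952.5 against 3263.5 UMIs in the plasma-negative and 4239.5 against 3742 UMIs in the plasma-positive library, and levels were taken per UMI. Stat2 was 4.93-fold (3.44 to 6.86) and 4.06-fold (3.29 to 4.97) higher in cells with Irf7, at 71.3 against 14.5 CPM and 73.6 against 18.1 CPM. Irf1 was 2.13-fold and 1.95-fold higher, and Irf9 1.82-fold and 1.36-fold. Irf3 (0.913 and 0.992), Ifnar1 (0.928 and 1.04), Ifnar2 (1.00 and 1.02) and Tyk2 (0.660 and 1.22) had intervals that include 1 in both libraries, and Jak1 was at 1.22 (1.02 to 1.44) and 0.963 (0.856 to 1.08). The induced members thus went together in the same cells and the constitutive members did not go with them in both libraries.

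Genes whose pattern was most like that of a member were ranked by the smaller of the 2 libraries' ratios of CPM in cells with and without a UMI of that member, at 1000 UMIs per cell. A gene was ranked only with at least 20 UMIs in the cells with the member in each library. A rare gene could therefore enter only through the cells in which it was high. For Irf7 only 244 genes reached this minimum. Ifit3 did so through 23 UMIs in 36 plasma-negative cells and was at 9.97 CPM in the other plasma-negative cells, so its first place is no independent evidence. Ifit3, an antiviral RNA-binding protein gene, came first with ratios of 64.1 and 29.9, then Ccl12, a monocyte chemokine gene, with 8.88 and 8.28, Trim30a with 6.34 and 4.59, and Bst2, the tetherin gene, with 4.21 and 4.52. Ly6e, Fcgr1, 9930111J21Rik2, Slc15a3, Cd52 and Tmed10 completed the first 10. Without thinning, an alternative chosen after seeing the data, 4520 genes could be ranked under the same minimum. The first 10 were then Rsad2 (93.2 and 58.8), Cxcl10 (171 and 47.4), Ifit3b, Ifit3, Ifit1, Ifit2, Oasl2, Isg15, Zbp1 and Ifitm3 (28.3 and 22.9), of which 1, Ifit3, was also on the thinned list. Without the plasma-negative cell that held the Ifnb1 UMIs, the plasma-negative ratio was 42.1 for Cxcl10 (29.4 to 59.9) and 44.5 for Rsad2 (26.2 to 74.7).

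For the other induced members the first 3 genes were Cxcl10 (23.2 and 6.97), Ifit3 and Cdkn2aip for Irf1, Bst2, Ccl12 and Rsf1 for Stat2, and Xaf1, Slfn2 and Ppp2r3c for Irf9. For the constitutive members they were Mast4, Sclt1 and Slc25a17 for Irf3, Gm26870, Acvr2b and Dot1l for Ifnar1, Idi1, Thoc6 and Fbxw5 for Ifnar2, Lyzl4, Sap130 and Pde7a for Jak1, and Atg5, Herc4 and Nsmaf for Tyk2. The Cxcl10 ratio of 23.2 rests on the cell with the Ifnb1 UMIs, without which 2 of its 28 UMIs remained and the ratio was 1.66 (0.190 to 6.65). No interferon effector gene was among the 15 for the constitutive members. Without thinning, however, the first 3 for Tyk2 were Oasl2, Ifit3 and Oas1a, all on the effector list. These ratios were ranked over many genes on sparse counts and serve as a description only.

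Other transcript states of the same cells were compared in the same manner, cells with 3 or more thinned UMIs of a list against cells with 0. The list leaning towards interferon gamma gave the next largest ratios after the effectors for Irf7, 24.9 and 17.1, and for Stat2, 5.01 and 5.15. For Irf1 it gave 2.22 (1.18 to 3.81) and 2.72 (1.88 to 3.79), the latter above the 1.87 by effectors in the same library. By Apoe, the gene of the lipid carrier apolipoprotein E, which was itself higher in the plasma-positive library, Irf7 was 1.84-fold (0.493 to 4.82) in 144 plasma-negative and 5.09-fold (4.09 to 6.31) in 638 plasma-positive Apoe-rich cells. The plasma-negative value rests on 4 Irf7 UMIs. In the plasma-positive library Ifnar2 was 1.17-fold higher in Apoe-rich cells (1.10 to 1.24) and Jak1 lower, at 0.844 (0.774 to 0.918). By NF-kB cytokine transcripts Irf1 was 1.82-fold higher in the plasma-negative library (1.12 to 2.79), which rests on the cell with the Ifnb1 UMIs: without it the ratio was 1.23 (0.672 to 2.08). In the plasma-positive library it was 1.18 (0.744 to 1.77), and the intervals of Irf7 include 1 in both. By immediate early genes, which mark recent stimulation or handling, the ratios of Irf7, Irf1, Irf9 and Stat2 all had intervals that include 1.

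**Figure D5:**
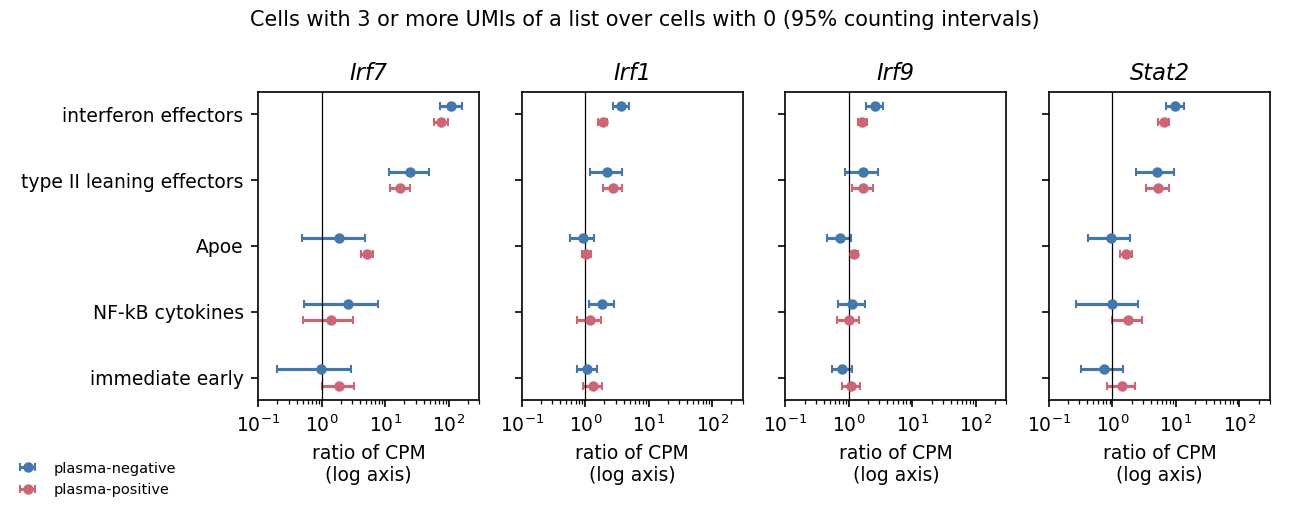
Ratio of CPM, cells with 3 or more UMIs of a transcript list over cells with 0, for Irf7, Irf1, Irf9 and Stat2 on a log axis, by library, with 95% counting intervals. Interferon effectors give the highest ratios for Irf7 (107 and 74.9) and Stat2 (9.71 and 6.37), and Apoe gives 5.09 for Irf7 in the plasma-positive library.

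Apoe and the effectors were then separated within the plasma-positive library. Among cells with 0 effector UMIs, Irf7 was at 2.37 CPM in 339 Apoe-rich cells and 2.18 CPM in 6888 cells without Apoe UMIs. The first of these levels rests on 4 Irf7 UMIs, and the ratio was 1.08 (0.286 to 2.91). Among effector-rich cells it was at 178 CPM in 125 Apoe-rich cells and 164 CPM in 220 cells without Apoe UMIs, a ratio of 1.08 (0.838 to 1.40). So at matched effector range the Irf7 level did not differ with Apoe beyond counting error, though the interval at 0 effector UMIs is wide. Stat2 did: in effector-rich cells it was at 61.1 CPM with Apoe and 124 CPM without, a ratio of 0.491 (0.329 to 0.717). Ifnar2 was higher with Apoe among cells with 0 effector UMIs, at 359 against 305 CPM, a ratio of 1.18 (1.08 to 1.28). The plasma-negative library had 1 cell rich in both and allows no such comparison.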

How the data were processed

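Raw UMI counts per gene and cell were deposited by the authors as 1 matrix per library, made with a Chromium Single Cell 3′ v3.1 kit per the labels. The file headers name cellranger 6.1.2 and the submitters' processing notes Cell Ranger 3.0.1. Genome build, annotation, use of strand and treatment of shared reads were not given in the sources used here. Cells were kept with at least 500 UMIs, 300 genes and at most 10% mitochondrial UMIs. No doublet caller was run, and the 8% deepest cells of each library were left out as an alternative. Barcodes were not used here, so shared ones were not counted.

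UMIs were summed per library and divided by the total to give CPM. Genes at 10 CPM or more in 1 library were compared, with no pseudocount. Intervals were exact Poisson, Clopper-Pearson and conditional binomial (95%), computed in Python 3.11.15 with pandas 2.3.3, numpy 2.4.6 and scipy 1.17.1. Thinning used seed 20. TMM factors came from edgeR 4.0.16 (R 4.3.3), with no test. The calculations were tested on simulated data.

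Members and gene lists were chosen with earlier results of these data known. Named are all members, in each pathway list up to 5 genes at 1.5-fold or more and the most abundant gene, and the genes most like each member (10 for Irf7, 3 for the others). Coordinates are from GENCODE M21 (GRCm38), which need not be the authors' build, and promoter sequences from RefSeq (GRCm38.p6).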

Additional observations from a re-analysis of the deposited data

How the results depend on the processing

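Other cell filters, scalings, weightings, thinning, gene minimums and effector lists gave 181 recomputed values. Of these 168 stayed, 13 moved and 0 beyond counting error changed direction. Ratios and their medians counted as moved when they left the counting interval of the main setting. Counts of members at 2-fold have no such interval and counted as moved when they changed by more than 1.5-fold or fell to 0. Among these counts only that of higher members at a minimum of 50 CPM moved. The log2 ratio of Irf7 stayed between 1.37 and 1.48 and that of Stat2 between 0.32 and 0.67, while those of Irf1 (-0.02 to 0.10), Tyk2, Ifnar2 and Jak1 took both signs within small values. Thinned to 1000 UMIs, the median of the induced members was 0.47, with Stat2 at 0.67 and Irf9 at 0.27. With a minimum of 50 CPM only 5 members were compared, Irf7 was not, and 0 were 2-fold higher. With cells thinned to 2000 UMIs the ratios of effector-rich to effector-free plasma-negative cells were 61.9 for Irf7, 2.54 for Irf1 and 6.85 for Stat2. Without Ifi27l2a and Ifitm3 in the list they were 13.6 for Stat2 in the plasma-negative, and 9.38 for Stat2 and 2.45 for Irf1 in the plasma-positive library. The cause was not tested. No scaling moved the median of all genes by more than 0.1. No paired analysis was possible because there was 1 library on each side, and no replicate could be left out. Depth limits Irf7 most, with 141 UMIs in the plasma-negative library.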

Other observations

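The plasma-negative cell with Ifnb1 was singled out after its values were seen. It held 4661 UMIs, among them 10 of Ifnb1, 170 of the chemokine gene Cxcl10, 69 of Ccl4, 26 of Ccl5 and 5 of Tnf. It also held 104 effector UMIs, 7 of Irf1, 2 of Irf7, 2 of Ifnar2 and 2 of Jak1, and 0 of Irf9, Stat2, Irf3, Ifnar1 and Tyk2. The plasma-positive cell with 1 Ifnb1 UMI held 866 UMIs and 0 effector UMIs.

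In cells rich in cell cycle transcripts, 16 plasma-negative and 39 plasma-positive cells, Ifnar2 was at ratios of 0.348 (0.159 to 0.660) and 0.727 (0.537 to 0.961) against cells with 0 cell cycle UMIs. Jak1 was at 0.566 (0.271 to 1.04) and 0.568 (0.371 to 0.833), of which the first interval includes 1. In the plasma-positive library Irf1 was also lower, at 0.297 (0.0611 to 0.868; 3 UMIs), as was Tyk2, at 0.145 (0.00367 to 0.810; 1 UMI). Their plasma-negative intervals include 1, and those of the remaining members include 1 in both libraries. Irf7 had 0 UMIs in these cells, too few cells to set its level apart, since the intervals reach up to ratios of 11.2 and 1.68.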
